A study of Mus musculus with 4 samples.

Results

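The genes described here are the protein-coding genes of the mouse that still carry a RIKEN clone symbol beginning with 1700 in release M21 of GENCODE. The pattern of the symbol, 1700 followed by further digits, a letter, digits and the ending Rik, picked 103 of 21,951 protein-coding genes, among them 1700001C19Rik. A read cluster was given to a gene when its centre lay within the span of the gene on the same strand. This gave 1,181 of the 337,234 clusters of replicate 1 and 858 of the 216,354 clusters of replicate 2. RIKEN symbols are working names given to cDNA clones, and clone numbers in the 1700 series came from a library of adult mouse testis. Many of these genes have no established function, and a few have been renamed. IGF2BP3 is a cytoplasmic RNA-binding protein with RRM and KH domains that binds mRNAs, including m6A-modified ones, and is known for effects on their stability and translation.

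IGF2BP3 eCLIP-seq was carried out on the testes of wild-type C57BL/6 mice at 8 weeks of age. In eCLIP-seq, protein and RNA are crosslinked by UV light, the protein is immunoprecipitated and the attached RNA fragments are sequenced. Each of the 2 replicates held 1 IP library made with an antibody to IGF2BP3 and 1 size-matched input (SMInput) library. The SMInput was taken from 2% of the same lysate and carries the background of its IP, and no group other than wild type is used. For each cluster, the authors deposited a log2(fold change) of IP over SMInput reads and a −log10(P value) of that comparison, with 0 for clusters without enrichment in the IP and 400 as the top of the scale. Here a cluster counts as a significant peak when its log2(fold change) and its −log10(P value) both reach 2. Read numbers of clusters were worked back from the listed values, with 5,133,438 IP and 8,706,391 SMInput reads in replicate 1 and 4,637,612 and 16,696,122 in replicate 2. Both libraries come from whole testis, so few cells that carry an mRNA and little of that mRNA per cell cannot be told apart. All 18 germ cell markers examined, from Zbtb16 of spermatogonia and Sycp1 of spermatocytes to Prm1 and Tnp2 of elongating spermatids, had clusters in both replicates. Of 18 markers of Sertoli, Leydig, peritubular myoid, macrophage and endothelial cells, 18 had clusters in replicate 1 and 14 in replicate 2. Rhox5 of Sertoli cells and the endothelial markers Pecam1, Cdh5 and Kdr had none in replicate 2.

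Most of the 103 genes were covered by clusters. In replicate 1, 96 of them (93.2%) had at least 1 cluster, and in replicate 2, 94 (91.3%). Among the other protein-coding genes, 63.9% and 58.3% had one. The covered 1700 Rik genes had a median of 10 and 8 clusters per gene, against 12 and 9 for the other protein-coding genes. Their annotated transcripts are shorter, with a median of 1,024 against 2,550 bases, a coding sequence of 591 against 1,179 bases and a 3′UTR of 174 against 734 bases. Only 6 of the 103 have a single exon.

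IGF2BP3 peaks were found in 72 of the 97 genes with a cluster, in at least 1 replicate, against 8,992 of 14,580 over all protein-coding genes. In replicate 1, 51 of the 96 genes with a cluster (53.1%) had a significant peak, and over all protein-coding genes with a cluster this share was 40.8%. In replicate 2, 63 of 94 (67.0%) had one, close to the 62.8% over all protein-coding genes. A significant peak in each replicate was present in 42 of the 93 genes with clusters in both (45.2%), against 39.1% over all protein-coding genes. In 26 genes (28.0%) significant peaks of the 2 replicates overlapped each other by at least 1 base, against 16.6%. A further 9 genes had significant peaks in replicate 1 alone and 21 in replicate 2 alone, while 25 had clusters but no significant peak. Over the 14,580 protein-coding genes with a cluster these counts were 924, 3,254 and 5,588. As a ratio, though in replicate 1 not in percentage points, the share of single clusters that were significant differed more from the background than the share of genes with a peak. It was 13.4% in replicate 1 (158 of 1,181), against 4.91% of the clusters in all protein-coding genes, and 24.9% in replicate 2 (214 of 858), against 13.1%. With thresholds of 3 for both values, 23 genes (24.0% of those with a cluster) in replicate 1 and 19 (20.2%) in replicate 2 had a peak, against 15.1% and 21.4% over all protein-coding genes. At these thresholds the share of genes was above the background in replicate 1 and below it in replicate 2. Counting only peaks with at least 10 IP reads, it was 46.9% against 29.8% and 46.8% against 29.3%, and with the log2(fold change) threshold at 1 it was 64.6% against 45.0% and 79.8% against 67.4%.

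The peaks were concentrated in few genes. The 10 genes with the most significant peaks, counted over both replicates, held 95 of the 158 peaks of replicate 1 (60.1%) and 103 of the 214 of replicate 2 (48.1%). They were ranked by these same peaks, which favours a high share. No matching share was worked out for other genes, so this concentration is no result about the members. Many peaks of the 1700 Rik genes touch each other, since a broad site is cut into pieces. They join into 111 separate sites in replicate 1 and 162 in replicate 2. In the other protein-coding genes, 15,836 peaks join into 14,238 sites in replicate 1 and 27,303 into 25,321 in replicate 2. Sites of the 1700 Rik genes were thus cut into more pieces, and shares of peaks or clusters count such a site several times. Leaving out these 10 genes, 6.73% of the remaining 936 clusters of replicate 1 and 16.5% of the 672 of replicate 2 were significant. Both shares stay above 4.91% and 13.1%, by a smaller margin than with the 10 genes. Over all 103 genes, significant peaks had a median log2(fold change) of 3.15 and 2.85. The other protein-coding genes had medians of 2.83 and 3.07, so the order of the medians was opposite in the 2 replicates. Without the 10 genes the members' medians were 2.76 and 2.55, below those of the other genes in both replicates. The 10 genes were picked for their peaks, and the other protein-coding genes were not trimmed alike. Values without the 10 genes, shares included, thus stand against an untrimmed background and are no result about the members. The peaks of the 1700 Rik genes rested on more reads, with medians of 24.5 and 17 in the IP against 13 and 8. Fewer than 10 IP reads lay behind 10.7% of the 150 members' peaks whose reads could be recovered in replicate 1, and 27.1% of the 199 in replicate 2. For the other protein-coding genes these shares, again among peaks with recovered reads, were 29.2% and 62.2%. The medians likewise leave out peaks whose reads could not be recovered. A counterpart in the other replicate, meaning an overlapping significant peak, existed for 66.5% of the members' peaks in replicate 1 and 47.2% in replicate 2. For the other protein-coding genes it existed for 32.5% and 18.1%. Without the 10 genes with the most peaks, the members' shares were lower and nearer to these. 1700028J19Rik alone held 23 of the 105 peaks with a counterpart in replicate 1 and 20 of the 101 in replicate 2.

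Most peaks lay in coding sequence or 3′UTRs. Which of these held more changed in replicate 1 with stricter thresholds and without the 10 genes with the most peaks. In replicate 1, 78 of the 158 peaks (49.4%) had their centre in the CDS, 58 (36.7%, 95% Wilson interval 29.6% to 44.5%) in the 3′UTR, 10 in the 5′UTR and 12 in introns. In replicate 2, 101 of 214 (47.2%) lay in the CDS, 69 (32.2%, 26.3% to 38.8%) in the 3′UTR, 13 in the 5′UTR and 31 in introns. In the other protein-coding genes 28.8% and 20.7% of the peaks lay in the CDS, 44.0% and 37.3% in the 3′UTR and 24.7% and 40% in introns. Without the 10 genes that hold the most peaks, the members' share in the CDS was 38.1% and 39.6% and that in the 3′UTR 41.3% and 35.1%. The order of the 2 regions was thus reversed in replicate 1. A centre that is CDS in one transcript and 3′UTR in another counts as 3′UTR here. Counted as CDS instead, such centres leave 3′UTR shares of 32.9% and 29.0% over all members. With both thresholds at 3 the members' share was 41.6% in the CDS and 46.8% in the 3′UTR in replicate 1, and 50% and 43.8% in replicate 2. The intervals cover counting error alone, and peaks of 1 gene are not independent. The CDS peaks came from 26 genes in replicate 1 and 36 in replicate 2, and the 3′UTR peaks from 25 and 29 genes. Within each region, a larger share of the clusters was significant than in other protein-coding genes. In the CDS it was 18.4% against 5.17% in replicate 1 and 25.7% against 7.81% in replicate 2. In the 3′UTR it was 37.2% against 19.4% and 47.9% against 34.5%. In introns the shares were close, 2.29% against 2.03% and 12.1% against 10.9%. Without the 10 genes that hold the most peaks, the members' shares were 7.12% and 14.6% in the CDS, 22.4% and 36.1% in the 3′UTR and 2.15% and 9.52% in introns. Leaving out genes picked for their peaks lowers these shares by construction, and the other protein-coding genes were not trimmed alike. The drop is therefore no measure of how far the differences rest on these 10 genes. The median log2(fold change) of all CDS clusters, the significant ones included, was 1.15 against 0.76 in replicate 1 and 1.33 against 0.93 in replicate 2.

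**Figure D1:**
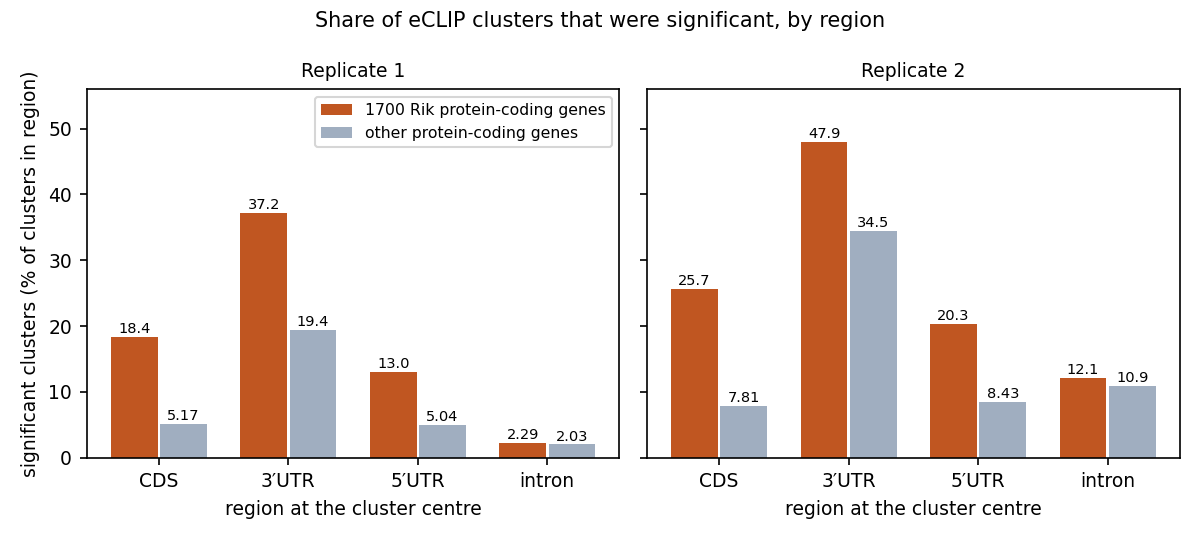
Percent of clusters that were significant, by the region at the cluster centre, in the 1700 Rik protein-coding genes and in the other protein-coding genes, for each replicate. CDS clusters reach 18.4% and 25.7% in the 1700 Rik genes against 5.17% and 7.81% in the others, while intron clusters lie close together, and without the 10 genes with the most peaks the CDS shares are 7.12% and 14.6%.

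CDS clusters of the 1700 Rik genes held more reads, with a median of 12 IP and 8 SMInput reads per CDS cluster in replicate 1 against 7 and 5, and 11 and 14 against 7 and 11 in replicate 2. Intron clusters did not in replicate 1, with medians of 4 and 2 in both sets. Clusters with like numbers of SMInput reads were therefore set side by side. Among CDS clusters with 1 to 4 SMInput reads, 30.3% of 99 were significant in replicate 1 against 7.55% in the other genes, and 30.3% of 33 against 18.6% in replicate 2. Among those with 5 to 9, 22.8% of 101 were significant against 7.53%, and 35.1% of 77 against 11.7%. The gap was smaller in replicate 1 among those with 10 to 19, with 12.0% of 100 against 5.24%, and in replicate 2 it was 24.1% of 108 against 6.20%. Among those with 20 or more, 19.7% of 61 were significant against 4.52%, and 22.5% of 138 against 4.76%. In the 3′UTR, the class with the fewest reads went the other way in replicate 2, where 33.3% of 15 clusters with 1 to 4 SMInput reads were significant against 41.4%. In the other 3′UTR classes of both replicates the share was higher in the 1700 Rik genes. These classes hold only clusters whose read numbers could be recovered, which leaves out those listed at 0 or 400, and they include the 10 genes with the most peaks.

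The log2(fold change) values of the replicates followed each other within these genes. Over 622 pairs of overlapping clusters, Pearson's r was 0.768 and Spearman's rho 0.681, as a description across clusters that share genes and libraries. Over 90,440 pairs in the other protein-coding genes the values were 0.636 and 0.596. Joining touching peaks of the 2 replicates gave 59 sites with overlapping significant peaks, in 26 genes, with a median width of 114 bases. By the centres of their significant peaks, 29 of these sites were assigned to the CDS alone, 22 to the 3′UTR alone, 4 to the 5′UTR and 1 to an intron. The remaining sites had peak centres in both the CDS and the 3′UTR, among them the strongest site, in 1700001C19Rik. A site can reach past the border of its region. Shared sites of other genes were not split by region, so this split is no result about the members. The highest log2(fold change) among the overlapping peaks of a site ran from 2.04 to 7.62 in replicate 1 and from 2.03 to 6.26 in replicate 2. It was higher in replicate 1 at 34 sites and in replicate 2 at 24.

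**Figure D2:**
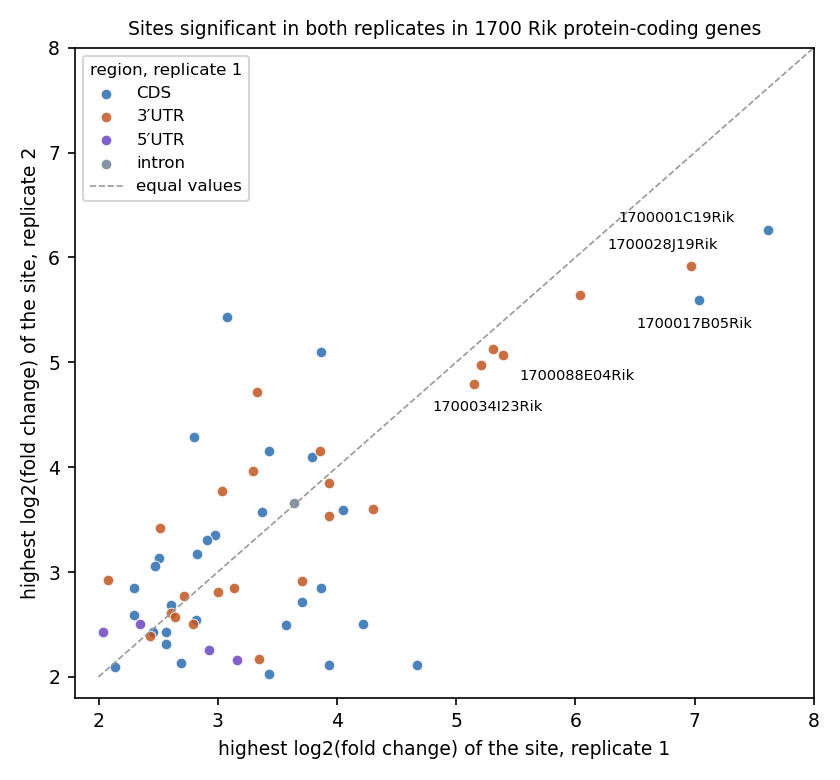
Highest log2(fold change) in replicate 1 (x axis) and replicate 2 (y axis) of the 59 sites significant in both replicates, each point a site, coloured by the region of its strongest peak in replicate 1. The highest sites of 1700001C19Rik, 1700028J19Rik and 1700017B05Rik have replicate 1 values from 6.97 to 7.62 and replicate 2 values from 5.59 to 6.26. A second site of 1700028J19Rik, with 6.04 and 5.64, lies above that of 1700017B05Rik in replicate 2.

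The strongest site lay in 1700001C19Rik, on the minus strand at chr17:47412734-47437376. Its transcript has 4 exons, a CDS of 633 bases and a 3′UTR of 828 bases. In both replicates significant peaks covered the end of the CDS in the last exon and crossed the stop codon into the 3′UTR, at chr17:47413516-47413696. Replicate 1 has 8 touching peaks here. They climb from a log2(fold change) of 4.42 in the 3′UTR to 7.62 in 6 bases of the CDS (chr17:47413648-47413653, 348 IP and 3 SMInput reads, −log10(P value) 144) and fall again to 4.93. Replicate 2 divides the same stretch into 3 peaks with values of 5.13, 6.26 and 4.64, and the highest of them covers chr17:47413609-47413653 with a −log10(P value) of 400. The highest peak of replicate 1 lies within that of replicate 2. Replicate 2 has further peaks on both sides, one in the 3′UTR with a log2(fold change) of 3.52 and one in the CDS with 3.10, with no significant partner in replicate 1. The remaining peaks of this gene were weak and did not overlap between the replicates, with 9 and 12 IP reads in the first and 6 in the second.

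Counted over both replicates, the gene with the most peaks was 1700028J19Rik, on the minus strand at chr7:44229811-44246695. All 23 of its clusters in replicate 1 and all 20 in replicate 2 were significant, and each had an overlapping counterpart in the other replicate. They form 10 sites in each replicate and lie in all 5 exons, with none in an intron. The top of the profile was in exon 4, at chr7:44230843-44230886, where replicate 1 has 3 peaks with log2(fold change) values of 6.81, 6.64 and 6.97 and replicate 2 has 1 peak with 5.92, each with a −log10(P value) of 400. The next site, at chr7:44230604-44230641, had values of 6.04 and 5.64. Both are read as 3′UTR because one annotated transcript ends its coding sequence earlier, and in the transcript with the longest CDS they are coding. The other exons did not follow a steady order, with up to 4.05 and 3.59 in exon 3, 3.87 and 5.10 in exon 2 and 2.91 and 3.31 in exon 1. Several peaks stop at an exon border, such as 44230641 in exon 5, 44231326 in exon 3 and 44236069 in exon 1. The IP held up to 241 reads in a single peak of replicate 1 against 28 in SMInput, among the peaks whose reads could be recovered.

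**Figure D3:**
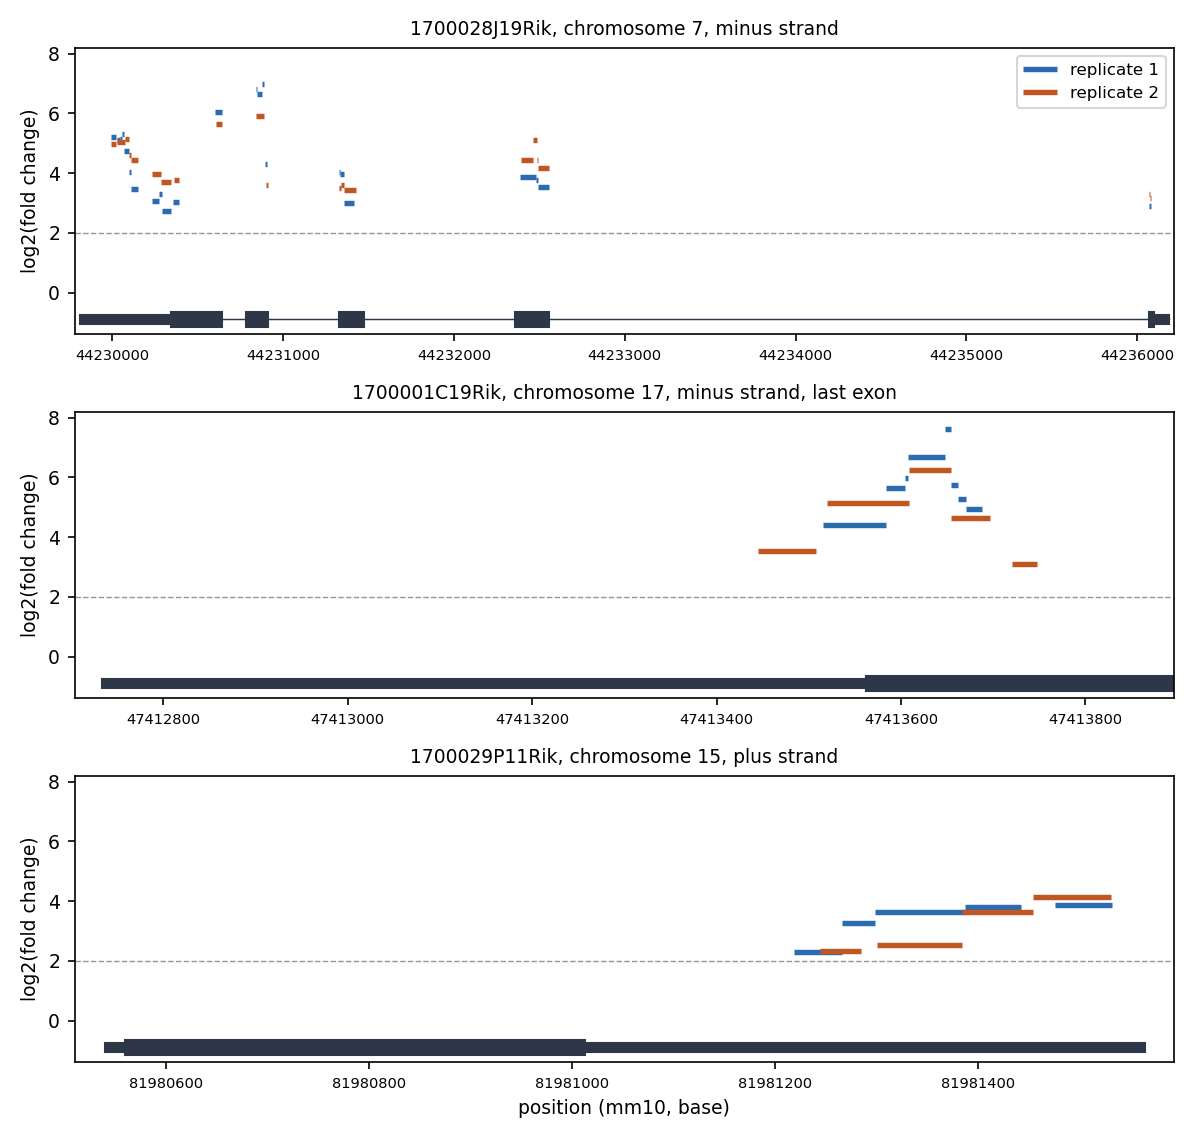
Significant peaks of 3 genes along the chromosome (x axis, mm10 position), drawn at their log2(fold change) (y axis) in replicate 1 (blue) and replicate 2 (orange), with the threshold of 2 dashed and the exons below (thick for CDS, thin for UTR). Peaks of 1700028J19Rik lie in all 5 exons, those of 1700001C19Rik peak before the stop codon and those of 1700029P11Rik fill the second part of the 3′UTR.

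Other strong sites lay within single coding exons. In 1700017B05Rik (minus strand, chr9:57253117-57262612, CDS of 3,072 bases), a site of 150 bases in exon 2 of 3 reached a log2(fold change) of 7.04 in replicate 1, with 155 IP and 2 SMInput reads at chr9:57258004-57258007. In replicate 2 it reached 5.59, with a −log10(P value) of 400 at chr9:57257958-57258008. It was the only shared site of the gene, although exon 2 carries 2,704 bases of its CDS, and most of its 15 and 11 clusters were not significant. In 1700008P02Rik, exon 1 holds a site at chr3:6620174-6620318 with values of 3.79 (49 IP and 6 SMInput reads) and 4.10 (38 and 8 reads), and a weaker one beside it with 2.83 and 3.17. In 1700129C05Rik, significant peaks of both replicates lay in exon 1, between chr14:59142457 and 59142815, with breaks between the peaks in both replicates. Its values peaked at the 3′ end of the exon, at 3.43 in replicate 1 and 4.15 in replicate 2, and its highest −log10(P value) was 35.1 and 86.1. Exon 4 of this gene held a shared site with 2.30 and 2.85, and exon 2 one with 3.37 and 3.57. The SMInput was deep in parts of exon 1 too, and the piece with the most IP reads in replicate 2, 159 against 104 in SMInput, had a log2(fold change) of 2.46.

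A number of genes, among them those described next, carried peaks in more than 1 coding exon. 1700006A11Rik (minus strand, chr3:124400989-124426040, 12 exons) had 13 significant peaks of 47 clusters in replicate 1 and 21 of 34 in replicate 2. Shared sites lay in exons 8, 9, 11 and 12. The site in exon 8 reached 2.80 and 4.29, and the one in exon 11 reached 3.71 and 2.71. It is also the only gene with a shared intron site, 37 bases at chr3:124405763-124405799 with 3.64 (22 IP and 3 SMInput reads) and 3.66 (21 and 6 reads). The peaks in exons 4, 6, 7 and 10 were significant in replicate 2 alone, with values from 2.04 to 2.45. 1700074P13Rik (minus strand, chr6:40920437-40940557) had 6 significant peaks of 30 clusters in each replicate, with shared sites in exons 4 and 5 of 7 and values from 2.03 to 3.43. In 1700113H08Rik (plus strand, chr10:87058045-87230589), 7 of 61 and 5 of 26 clusters were significant. Its shared sites lay in the 5′UTR of another of its transcripts than the one used for exon numbers (2.35 and 2.50), in exon 5 (4.22 and 2.50) and at a pair of places in exon 6, of which the stronger had 2.98 with 56 IP reads and 3.35 with 17. The value of 4.22 rests on 11 IP reads and 1 SMInput read.

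The 3′UTR carried the main sites of another group. In 1700088E04Rik (minus strand, chr15:79129349-79141253), a site in exon 6 at chr15:79134689-79134840 reached 5.39 in replicate 1 (124 IP and 5 SMInput reads, −log10(P value) 42.5) and 5.07 in replicate 2 (112 and 12 reads, 74.9). The boundaries of its highest peak differed by 1 base between the replicates. Its peaks outside this site, all in replicate 1, had at most 19 IP reads. The single-exon gene 1700034I23Rik (minus strand, chr3:40900196-40902543) had all of its clusters significant, 4 in replicate 1 and 8 in replicate 2, and all in its 3′UTR of 1,688 bases. Of its 3 shared sites, chr3:40901218-40901326 had 5.15 (63 IP and 3 SMInput reads) and 4.79 (46 and 6 reads), and the others had 3.33 and 4.72, and 3.71 and 2.91. Another single-exon gene, 1700029P11Rik (plus strand, chr15:81980540-81981563), also had all of its clusters significant, 5 and 4, over chr15:81981219-81981531. The values rose toward the 3′ end in both replicates, from 2.30 to 3.86 in replicate 1 and from 2.33 to 4.15 in replicate 2. No cluster of either gene lay in its CDS.

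1700029F12Rik (minus strand, chr13:97021864-97034362) combined 3 shared sites in its 3′UTR with 1 in its 5′UTR. The shared 3′UTR site with the highest value in both replicates, counting peaks that overlap, was chr13:97022297-97022324 with 3.93 (36 IP and 4 SMInput reads) and 3.53 (32 and 10 reads). The deepest 3′UTR piece with recovered reads in replicate 2 had 270 IP reads against 185 in SMInput, and with that depth a log2(fold change) of 2.39 gave a −log10(P value) of 83.0. 1700007K13Rik (minus strand, chr2:28462001-28466332) had a site of 238 bases that runs from its 3′UTR into the end of the CDS, with 3.93 and 3.85 in the 3′UTR, but with only 9 and 8 IP reads at these values. Its wider pieces had 19 IP reads with 2.69 and 13 with 2.55. In 1700017D01Rik, the shared sites were spread over the 3′UTR and exons 3, 5 and 7. Its highest value, 5.43 in exon 5 in replicate 2, rests on 12 IP reads and 1 SMInput read, and the same site had 3.08 in replicate 1. Its deepest site in replicate 1, in the coding part of exon 7, had 3.87 (43 IP and 5 SMInput reads) and 2.85 (28 and 14 reads).

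The remaining 12 genes with a shared site had 1 or 2 such sites each, and those named next were picked after their values were seen. In 1700013G24Rik, a CDS site at chr4:137455317-137455434 had 2.51 with 74 IP reads and 3.13 with 73. In 1700016H13Rik, 2 sites in the 3′UTR had 2.72 and 2.77, and 2.61 in both replicates. In 1700020L24Rik, a 3′UTR site had 2.64 with 66 IP reads and 2.57 with 43. In 1700037H04Rik, a site in the 3′UTR of one of its transcripts had 2.43 and 2.39. Sites in the 5′UTR were shared in 1700020A23Rik (2.93 and 2.26) and 1700003F12Rik (2.04 and 2.43), and the former overlaps another gene on its strand, while the latter is 5′UTR in only some transcripts of its gene.

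Whether presence in 1 replicate alone goes with low coverage was not tested. An example of such presence, picked after its values were seen, is 1700010B08Rik, with 6 significant peaks in replicate 2 and 0 in replicate 1. The deepest of them lie side by side in exon 3, with log2(fold change) values of 2.67 (62 IP and 35 SMInput reads, −log10(P value) 22.6) and 2.71 (60 and 33 reads, 22.3). In replicate 1 none of its 6 clusters exceeded a log2(fold change) of 1.76, and the deepest held 65 IP and 41 SMInput reads.

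Among the 25 genes with clusters and no significant peak, those with the most clusters were 1700061G19Rik with 25 and 10, 1700001K19Rik with 19 and 14, 1700066B19Rik with 15 and 14, 1700025F22Rik with 13 and 9 and 1700057G04Rik with 14 and 8. They were chosen for their clusters, and why they have no significant peak was not tested. The deepest cluster of 1700061G19Rik held 14 IP reads against 15 in SMInput in replicate 1 and 23 against 35 in replicate 2, and the median log2(fold change) of its clusters was 0.95 and 1.08. For 1700001K19Rik the medians were 1.35 and 0.91, with at most 19 and 20 IP reads in a cluster. 1700057G04Rik had clusters whose log2(fold change) reached 3.35 and 2.07, and 1700066B19Rik of up to 2.76 and 3.43. The deepest cluster of either gene held at most 8 IP reads, and none of their clusters reached both thresholds. The part of read depth in this was not tested.

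For 6 of the 103 genes no cluster was listed in either replicate, namely 1700018G05Rik, 1700024B05Rik, 1700025B11Rik, 1700025C18Rik, 1700040F15Rik and 1700084M14Rik. Of these, 4 have an annotated transcript of another gene with at least 95% identity over at least 50% of their length, and over all members 9 have such a copy. 1700040F15Rik, the only member on the Y chromosome, has near-identical relatives that include Sly. 1700084M14Rik, on the X chromosome, is 95.5% identical to its closest relative. Values of these 9 genes are uncertain where reads could be placed in a copy. Members on the X chromosome had 9 and 11 clusters in 7 genes and a single significant peak, in an intron of 1700080O16Rik in replicate 1 with 8 IP reads. On the autosomes, 50 of 95 genes had a significant peak in replicate 1 and 63 in replicate 2. The sex chromosome members are too few for a comparison beyond these counts. The same counts were not made over all protein-coding genes of these chromosomes, so they are no result about the members.

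The length of the 3′UTR was set beside the number of peaks. The 52 genes with a 3′UTR of at least the median length of 174 bases held 117 of the 158 peaks of replicate 1 and 139 of the 214 of replicate 2, and most of the genes with the most peaks are among them. In replicate 2 the number of genes with a significant peak was close, 33 of these 52 and 30 of the 51 others, and in replicate 1 it was 31 and 20. A shared site was found in 17 of them and in 9 of the 51 with a shorter 3′UTR. Counts by 3′UTR length were not made over all protein-coding genes, so these are no result about the members. Of the 6 single-exon genes, 1700029P11Rik and 1700034I23Rik had shared sites and 1700123L14Rik and 1700056E22Rik had no significant peak. Another gene on the same strand overlaps 9 of the 103, and the centre of a significant peak lay in more than 1 gene only 4 times in replicate 1 and 5 times in replicate 2.

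Under their current RefSeq symbols, 9 members have names that replace the clone name. 1700017D01Rik (Ms4a20) and 1700025F22Rik (Ms4a19) are neighbours on chromosome 19 in the MS4A family of membrane-spanning proteins. The former had 9 and 12 significant peaks and the latter none, with at most 9 IP reads in its deepest cluster in either replicate. Mtres1 (1700021F05Rik), which encodes a mitochondrial transcription rescue factor, had a shared CDS site in exon 2 with 2.57 and 2.43. Nudt16l2 (1700080E11Rik), of the Nudix family, had one in exon 2 with 2.57 and 2.31. The histone gene H2bl1 (1700024P04Rik) had 1 cluster in each replicate, with a log2(fold change) of 1.25 and 2.33 on 7 IP reads each, and the second was significant. Efcab15 (1700023F06Rik) had a single significant peak, in replicate 2, and Acsbg3 (1700061G19Rik), of the acyl-CoA synthetase family, had none. Pttg1ip2 (1700015F17Rik) and Fam166c (1700001C02Rik) had significant peaks in both replicates that did not overlap.

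The sequence under the peaks was searched on the strand of the peak for forms of the m6A motif and for words of the CA-rich kind that IGF2BP proteins bind. The m6A forms were DRACH, in which D is any base but C, R a purine and H any base but G, and the narrower GAACA along with the narrower AAACC. The CA-rich words were CATA and its relatives CATC as well as CATT, and ACACA. DRACH was present in 93.6% of the 100-base windows at CDS peaks in replicate 1 and 90.1% in replicate 2, against 84.8% and 84.2% over CDS peaks of all protein-coding genes and 85.6% and 83.6% at the other CDS clusters of the 1700 Rik genes. In the 3′UTR it was in 89.7% and 88.4%, against 84.3% and 83.4%, and the members' other clusters had 89.8% and 88.0%. GAACA was in 12.8% and 11.9% of the CDS windows, against 10.4% and 10.7%, and in 6.90% and 2.90% of the 3′UTR windows, against 8.29% and 7.69%. AAACC was in 19.2% of the CDS windows in replicate 1 but in 8.91% in replicate 2, against 9.68% and 8.51%, so its share of windows differed between the replicates. Whether this comes from sites cut into unlike numbers of pieces was not tested. ACACA was in 12.8% and 8.91% of the CDS windows and in 13.8% and 11.6% of the 3′UTR windows, against 10.6% and 10%, and 11.9% and 10.9%. Touching peaks give overlapping windows, and the members' CDS windows come from only 26 genes in replicate 1 and 36 in replicate 2. Counts by joined site or by gene were made for CATA in the 3′UTR alone. For the other words, a difference in the share of windows can therefore rest on few sites.

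At CDS peaks CATA was about as frequent as in the sets beside them, in 19.2% and 21.8% of the windows, against 19.6% and 18.6% over all protein-coding genes and 18.4% and 20.9% at the members' other CDS clusters. In the 3′UTR it was more frequent by windows, though not by genes. Of genes with a 3′UTR peak in replicate 1, 8 of 25 members had such a window, against 1,272 of 3,191 over all protein-coding genes. In replicate 2 the counts were 11 of 29 against 1,708 of 4,432. By windows, CATA was in 36.2% of 58 in replicate 1 and 37.7% of 69 in replicate 2. At 3′UTR peaks of all protein-coding genes it was in 25.6% and 23.4%, and at the members' other 3′UTR clusters in 16.3% and 21.3%. With 1 window per joined site the shares were 35.0% and 36.2%. Without 1700028J19Rik, whose peaks hold several of these windows, they were 26.2% and 33.9%, so in replicate 1 the share without this gene is near that of all protein-coding genes. CATC was in 43.1% and 40.6% of the 3′UTR windows, against 31.5% and 28.9%, but the members' other 3′UTR clusters had 41.8% and 44.0%. CATT was in 34.5% and 33.3%, against 40.6% and 39.9%. CATA, CATC or CATT was in 71.8% and 71.3% of the CDS windows, against 67.7% and 68.1%, and in 79.3% and 85.5% of the 3′UTR windows, against 69.4% and 67.3%.

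Of the 22 shared sites assigned to the 3′UTR alone by their peak centres, 9 in 6 genes contain CATA. Some sites of 1700028J19Rik among the 22 are coding in its transcript with the longest CDS. They are shown as 30 bases of mm10 on the strand of the gene, 5′ to 3′, with CATA in capitals, to show what surrounds the word at each site. Each line is centred on the first CATA from the 5′ end that lies within the site, and that one alone is capitalised.
1700028J19Rik chr7:44230068-44230097 (minus strand): cctttggtccagcCATAccagagacatccc
1700034I23Rik chr3:40901260-40901289 (minus strand): ctagggccttgctCATActaggcaacggct
1700029P11Rik chr15:81981432-81981461 (plus strand): cattactaaacttCATAtgtaacccaagaa
1700034I23Rik chr3:40900297-40900326 (minus strand): agtttgtttaaatCATAtatatattcttcc
1700028J19Rik chr7:44230321-44230350 (minus strand): tcccttgaggtgcCATActtcccataagag
1700034I23Rik chr3:40900836-40900865 (minus strand): tacaggagttattCATAtttggtcctttgt
1700017D01Rik chr19:11096871-11096900 (minus strand): gcctcatgggaaaCATActccaatgatgtc
1700029F12Rik chr13:97022213-97022242 (minus strand): atatgtcatcaccCATAtataacccctccc
1700015G11Rik chr7:52011818-52011847 (minus strand): tcttcatagtggaCATAagcttggagtctt
The base after the capitalised CATA is C or T at each of these sites except that of 1700015G11Rik, where it is A. Neither this base nor the number of sites with CATA was set against shared sites of other genes.

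To show what the summits themselves look like, the same length of sequence was taken at the centre of the overlap of the strongest peaks of both replicates, for the genes with the highest shared sites. Capitals mark any of the words searched for, DRACH excepted.
1700001C19Rik chr17:47413636-47413665 (minus strand): ccctgcagaagcccacctgtggctacctgt
1700028J19Rik chr7:44230868-44230897 (minus strand): cctcagcctgactttctttgtggtcaactg
1700017B05Rik chr9:57257991-57258020 (minus strand): caaggtgcccactggactttgttccccaaa
1700088E04Rik chr15:79134707-79134736 (minus strand): gtctttgccttcttgtagccttgggcaaat
1700034I23Rik chr3:40901239-40901268 (minus strand): gcaacggctactccaaagctatactcttag
1700029P11Rik chr15:81981489-81981518 (plus strand): gaatcggcctggattttcagattgcctgcc
1700007K13Rik chr2:28462048-28462077 (minus strand): taccttgtgttctgCATTtcACACAggaaa
1700008P02Rik chr3:6620219-6620248 (minus strand): tctgctttctgtcctatctcttttccccct
1700006A11Rik chr3:124405769-124405798 (minus strand): tcttcaagctcctagtgccaggctggcttt
1700029F12Rik chr13:97022296-97022325 (minus strand): gggtgggacctgcagtcctgttgccaaggt
Of the 14 windows taken in this way at the genes with the highest or the most peaks, 2 hold one of these words, those of 1700007K13Rik and 1700017D01Rik. Over CDS and 3′UTR peaks of all protein-coding genes, 32.0% of the windows of 30 bases in replicate 1 and 29.5% in replicate 2 hold one. The summits range from 30% to 70% in GC content. No match says only that these letters are not in the window.

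Among related lists, the 141 protein-coding genes with a clone symbol beginning with 49 were counted in the same way. Of those with a cluster, 40% had a significant peak in replicate 1 and 52.0% in replicate 2. Of their clusters, 6.13% and 13.8% were significant. The 417 genes of other biotypes with a 1700 Rik symbol, mostly long non-coding RNAs, had clusters in 30.7% and 26.9% of the genes, and 7.08% and 17.5% of these clusters were significant. Overlapping significant peaks of both replicates were found in 19 of 95 and 13 of 101 genes of these lists with clusters in both replicates, against 26 of 93 for the protein-coding 1700 Rik genes.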

How the data were processed

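IGF2BP3 eCLIP-seq of mouse testes was analysed from the cluster tables of 2 replicates. The authors trimmed reads with cutadapt, removed rRNA reads with Bowtie2, mapped the rest to mm10 (GRCm38) with STAR and called clusters with Clipper. Each deposited table gives a −log10(P value) and a log2(fold change) of IP over SMInput for every cluster. The −log10(P value) in the deposited tables is 0 without enrichment and 400 at most. The log2(fold change) in the deposited tables is on the log2 scale of normalised IP over SMInput reads.

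Clusters were given to genes of GENCODE M21 by centre and strand, and to regions of basic transcripts in the order 3′UTR, CDS, 5′UTR, other exon and intron. A peak was significant with both values at least 2. Read numbers were recovered as the whole numbers that give both listed values, with library totals worked out in the same way, and 98.9% and 99.2% of the clusters listed between 0 and 400 had 1 solution. Recovery, overlap and joining were tested on simulated data. Touching peaks of one strand were joined into sites, and sites were shared when significant peaks of both replicates overlapped by at least 1 base. Motifs were counted in 100-base windows centred on each peak, and near-identical transcripts were found with BLAST 2.17.0. Python 3.11.15, numpy 2.4.6, scipy 1.17.1, pandas 2.3.3, pysam 0.24.0 and matplotlib 3.10.9 were used.

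The gene list and the lists beside it were chosen with earlier results of these data known. Genes were named by rule: the 10 with the strongest shared site, the 10 with the most significant peaks, the 5 highest by −log10(P value) in each replicate, the 5 with the most clusters and no significant peak, and 1700001C19Rik, which the rule names. Other genes were named as members of a group described, such as renamed or single-exon genes, or picked after their values were seen. No test was made over the genes. Alternatives were other thresholds, a minimum of 10 IP reads, other rules for giving clusters to genes and regions, a longer overlap and each replicate alone. No sample was left out.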

Additional observations from a re-analysis of the deposited data

How the results depend on the processing

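Of 57 alternatives to 10 results, 46 stayed within set limits and 11 moved. The limits were 1.5 times for a count, the 95% Wilson interval for a share and 0.212 (SD between the replicates) for a median, which are wide for small numbers. With both thresholds at 3, the members with a significant peak numbered 23 in replicate 1, 19 in replicate 2 and 13 in both, and those with a shared site 11. At these thresholds, genes with a peak in both replicates or a shared site were not counted over all protein-coding genes. The counts of 13 and 11 are therefore no result about the members. The 3′UTR share was then 46.8% and 43.8%, in replicate 1 above the CDS share of 41.6%, and the median log2(fold change) 3.87 and 3.78. With the log2(fold change) threshold at 1 the medians were 2.57 and 2.43. Medians move with the threshold by construction. With at least 10 IP reads, the 3′UTR share in replicate 2 was 38.8%, and the cause was not tested.

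With 1 replicate left out, the count of members with a significant peak in both, 42, became 51 to 63 for the remaining replicate alone. Shared sites need both replicates and give no value without one. No paired analysis was possible because within each replicate the deposited values already set IP against its own SMInput and the results come from no test. The alternatives for CATA were chosen after seeing the data. Leaving out 1700028J19Rik in replicate 1 counts among the 46, but the share of 26.2% is near the 25.6% over all protein-coding genes, so the excess over these, though not over the members' other 3′UTR clusters (16.3%), rests on that gene there. Weakly covered members can hold peaks that this depth does not show.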

Other observations

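Few significant intron peaks were shared, in the 1700 Rik genes as in others. Of 12 in replicate 1 and 31 in replicate 2, 1 in each had an overlapping counterpart in the other (8.33% and 3.23%, against 6.29% and 2.21% in other protein-coding genes), while 57 of 78 and 55 of 101 CDS peaks did (73.1% and 54.5%, against 35.1% and 26.7%). The members' CDS shares were lower without the genes that hold the most peaks, and in replicate 2 below the 26.7% of the other genes. The other protein-coding genes were not trimmed alike. For introns, a share near the background is not a result about the members. Intron clusters of these genes had a median of 4 IP reads in each replicate. In the protein-coding genes with a symbol beginning with 49, 37.1% and 33.7% of the significant peaks lay in the CDS.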
